A study of Mus musculus with 8 samples.

Results

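The genes described here take up fatty acids and carry them inside the cell: 5 fatty acid binding proteins (Fabp1, Fabp2, Fabp4, Fabp5 and Fabp7), the membrane carrier Cd36, 3 fatty acid transport proteins (Slc27a1, Slc27a2 and Slc27a4) and the acyl-CoA binding protein Dbi. They were found by symbol in the array's annotation, which gave 14 transcript clusters for these 10 genes out of 41345 clusters and 22180 singly named genes in all. A transcript cluster is the set of probes summarised into 1 value on an Affymetrix MouseGene 2.0 ST array. Fabp5 had 4 clusters, Slc27a2 had 2 and each of the other 8 genes had 1, and no cluster carried a second symbol. The rule that finds them uses names, and the set was drawn up with earlier results of these data known.

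The study compared AML12 cells stably expressing Zfp125, a zinc finger protein, with AML12 cells carrying the empty vector (EV), on 4 arrays for each. AML12 cells are an established line of mouse hepatocytes. Cells of both groups went through G418 selection and were then grown in control medium, with no other treatment named. The labels give neither the vector's promoter nor whether replicates of a group came from separate cultures or clones, and p-values therefore reflect the spread among these samples, part or all of which may be technical. No cluster is named for Zfp125 here, so expression of the introduced gene was not checked.

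Long-chain fatty acids enter hepatocytes partly through membrane proteins such as Cd36 and the Slc27 family, whose members also join fatty acids to coenzyme A. Inside the cell, fatty acid binding proteins keep fatty acids soluble and carry them to the endoplasmic reticulum, mitochondria, peroxisomes and nucleus, while Dbi binds the acyl-CoA esters. Fabp1 is the abundant form of hepatocytes, Fabp2 belongs to the gut, Fabp4 to adipocytes and macrophages, Fabp5 to skin and many other cells, and Fabp7 to the developing brain.

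All values are on the log2 scale, so a rise of 1 doubles the level, and because probes differ between clusters, a cluster called bright or dim is so by its signal, which does not rank amounts of RNA between genes. Changes are Zfp125 minus EV, given with limma's moderated standard error, and a cluster was called changed at a Benjamini-Hochberg adjusted p under 0.05 over all 41345 clusters. Medians over all clusters were 4.32 to 4.37 on the 8 arrays, and correlations between arrays were 0.977 to 0.984. Of 8 hepatocyte markers 7 had means above the median cluster mean of 4.34, the exception being Tdo2 at 3.22 in Zfp125 cells and 3.37 in EV cells. Alb, the gene of serum albumin, averaged 12.48 ± 0.06 in Zfp125 cells and 12.96 ± 0.09 in EV cells (SD, n = 4 each), and Serpina1a averaged 5.04 in Zfp125 cells and 5.15 in EV cells. Above the same median were 3 of 5 adipocyte, 4 of 7 macrophage, 3 of 6 endothelial, 4 of 6 stellate cell and fibroblast and 3 of 4 biliary markers, while Adipoq of adipocytes and Ptprc and Adgre1 of macrophages were below it in both groups.

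Of the 14 clusters, 2 fell in Zfp125 cells and 0 rose, against 0.148% of all clusters called in either direction and 0.123% called lower. Both that fell are named Fabp5, with levels 2.37-fold and 2.28-fold lower. Their difference on the same array had an SD of only 0.05 in Zfp125 cells and 0.04 in EV cells. The 2 calls are therefore not independent. The brightest Fabp5 cluster was 1.40-fold lower and was not called. The groups did not overlap for 5 clusters that were lower in Zfp125 cells, the 4 of Fabp5 and that of Fabp1, and for 1 that was higher, Slc27a4. Of all clusters, 3.03% were lower without overlap and 3.2% were higher without overlap. At an unadjusted p under 0.05 by limma there were 6 of the 14, all lower in Zfp125 cells, beside 9.43% of all clusters. The median change of the 14 clusters was -0.19, beside -0.000953 for all clusters, and 4 of the 14 share the gene Fabp5.

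**Figure D1:**
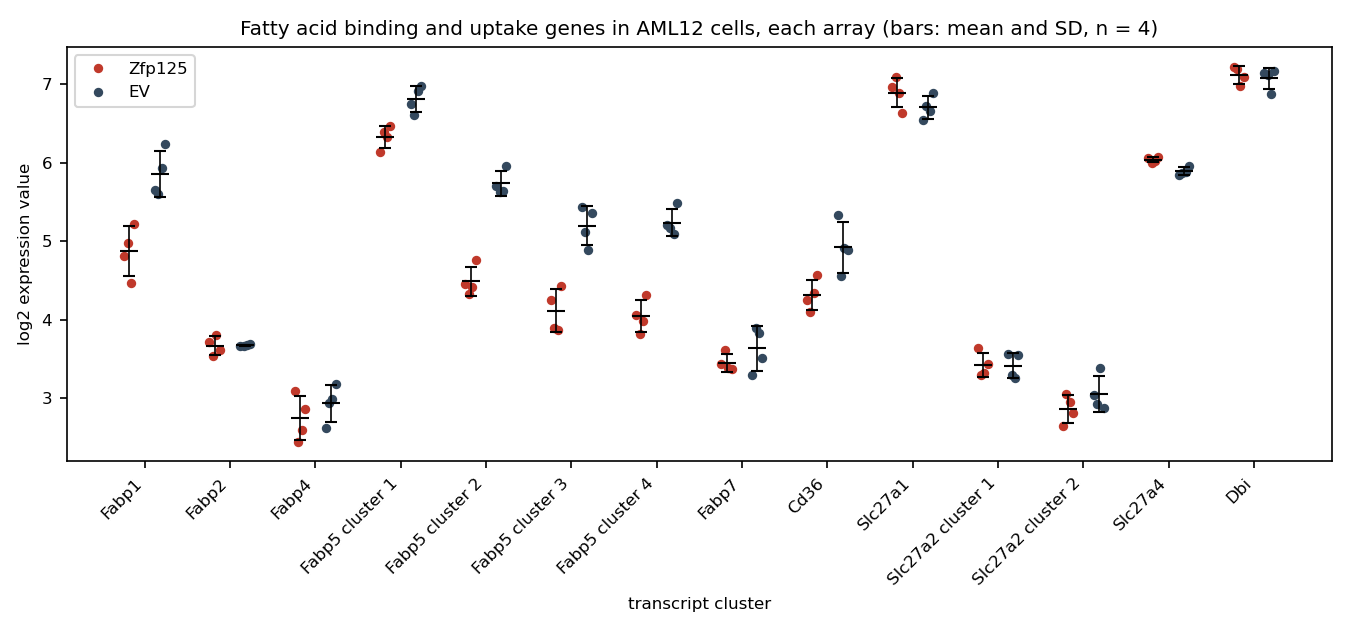
Log2 expression value (y axis) of each of the 14 transcript clusters (x axis) on every array, with Zfp125 cells in red left of EV cells in dark grey; black bars are the mean and SD of 4 arrays. The 4 Fabp5 clusters and Fabp1 lie lower in Zfp125 cells without overlap, and Dbi averages 7.12 in Zfp125 cells and 7.07 in EV cells.

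Fabp5, the epidermal fatty acid binding protein, carried both calls. Cluster 2, transcript cluster 17548238, read 4.45, 4.33, 4.42 and 4.76 in Zfp125 cells, against 5.71, 5.63, 5.64 and 5.96 in EV cells. The highest Zfp125 array lay 0.87 below the lowest EV array. The cluster fell by 1.25 ± 0.12 (limma adjusted p = 0.00716), to 42.1% of the EV level. Cluster 4, transcript cluster 17548717, read 4.06, 3.82, 3.98 and 4.32 in Zfp125 cells, against 5.21, 5.17, 5.09 and 5.48 in EV cells. It fell by 1.19 ± 0.13 (limma adjusted p = 0.0117), and its groups were again apart on every array. Without variance moderation neither call held (adjusted p = 0.0632 for cluster 2 and 0.0822 for cluster 4). Cluster 2 stayed called on leaving out any 1 array, while the call of cluster 4 ended without Zfp125 replicate 1 or 3 (adjusted p = 0.0604 and 0.0574).

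Cluster 3 of Fabp5, transcript cluster 17404073, read 4.25, 3.90, 3.88 and 4.43 in Zfp125 cells, against 5.44, 5.11, 4.88 and 5.35 in EV cells. Its change of -1.08 ± 0.16 was close to those of clusters 2 and 4 but did not pass (limma adjusted p = 0.0534). On leaving out 1 array it passed in 1 of 8 cases, without Zfp125 replicate 4 (adjusted p = 0.0468), with values up to 0.170 in the others. It also passed among singly named clusters (adjusted p = 0.00276), a setting chosen after seeing the data, with 1.03% of clusters called. Cluster 1, transcript cluster 17396056 and the one with the highest mean signal of the 4, read 6.13, 6.39, 6.33 and 6.47 in Zfp125 cells, against 6.75, 6.61, 6.91 and 6.98 in EV cells. Every Zfp125 array was below every EV array here too, but the change was smaller, -0.48 ± 0.11, and did not pass (limma adjusted p = 0.177).

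Whether the 4 Fabp5 clusters changed unequally was asked from the difference between 2 clusters on the same array. The change of cluster 2 minus that of cluster 1 was -0.76, and the same difference was -0.71 for cluster 4 and -0.60 for cluster 3. The first 2 of these differences did not overlap between groups and reached the smallest p the design allows (exact permutation test, two-sided p = 0.0286), and the third did not (exact p = 0.0571). Over the 7 pairs of clusters tested, none passed after adjustment (adjusted exact p = 0.1, 0.1 and 0.133). With 0.0286 as the smallest exact p, a pair can pass only when most pairs reach it. The failure to pass therefore does not show that the clusters changed equally. Clusters 2, 3 and 4 differed from each other in change by -0.11 to 0.16 (exact p of 0.143 to 0.4). The mean of the 4 Fabp5 clusters fell by 1.001 ± 0.11 when 22180 genes were tested by the means of their clusters (limma adjusted p = 6.20e-04). In that setting 1.02% of genes were called, and the mean weighs clusters 2, 3 and 4 together above cluster 1. Where each gene was tested by its brightest cluster, here cluster 1, Fabp5 did not pass (limma adjusted p = 0.0522).

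The Fabp5 gene lies on chromosome 3. In the order of the array's identifiers, clusters 1 and 3 have 10 of their 10 nearest named neighbours on chromosome 3. Clusters 2 and 4 have 3 and 1 of 10 there, with the others on several chromosomes. Mouse has near-identical copies of Fabp5, and which transcripts each cluster's probes detect was not tested, so the 4 clusters are not 4 independent measurements of the gene. Neighbours of Fabp5 on chromosome 3 include other lipid-binding proteins. None was called: Pmp2, the myelin form, had a change of -0.13 ± 0.20, Fabp4 of -0.19 ± 0.16, the testis form Fabp9 of 0.10 ± 0.13 and Fabp12 of 0.02 ± 0.09.

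Fabp1, the main fatty acid carrier of liver cytosol, read 4.81, 4.98, 4.47 and 5.23 in Zfp125 cells, against 5.65, 5.60, 5.93 and 6.24 in EV cells (transcript cluster 17459455). All 4 Zfp125 arrays were below the lowest EV array. Its change was -0.98 ± 0.19, or 50.6% of the EV level, with a 95% interval of -1.41 to -0.56. Over all 41345 clusters it did not pass (limma adjusted p = 0.107). It passed where only the brightest cluster of each of 22180 genes was tested (adjusted p = 0.0119, with 1.08% of genes called). It also passed when clusters dimmer than the table median were dropped (adjusted p = 0.0417, with 1.12% of clusters called), so its call rests on which clusters are tested. On leaving out 1 array its change lay between -1.10 and -0.85, with adjusted p-values of 0.113 to 0.256.

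The sequence before the annotated start of Fabp1 is shown because this promoter is a textbook target of nuclear receptors and hepatocyte factors, with those of Cd36 and Slc27a2 for comparison. They are the 250 bases before the start in the table, which for Cd36 is not the outermost annotated one, 5′ to 3′ on the gene's strand, from RefSeq on GRCm38.p6, at chr6:71199629-71199878 (+) for Fabp1, chr5:17835897-17836146 (-) for Cd36 and chr2:126552774-126553023 (+) for Slc27a2. Capitals mark the nuclear receptor half-site AGGTCA or its reverse TGACCT, the hepatocyte nuclear factor 1 half-site GTTAAT and the TATA box TATAAA.
Fabp1: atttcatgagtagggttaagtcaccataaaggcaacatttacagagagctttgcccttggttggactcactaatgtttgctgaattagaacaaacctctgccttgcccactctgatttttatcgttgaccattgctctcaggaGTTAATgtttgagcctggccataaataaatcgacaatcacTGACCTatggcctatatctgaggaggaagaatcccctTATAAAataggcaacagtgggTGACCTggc
Cd36: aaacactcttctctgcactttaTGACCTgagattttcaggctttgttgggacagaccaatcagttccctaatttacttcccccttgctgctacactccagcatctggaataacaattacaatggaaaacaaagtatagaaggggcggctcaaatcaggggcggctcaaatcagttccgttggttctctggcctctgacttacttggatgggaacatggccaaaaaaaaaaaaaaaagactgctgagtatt
Slc27a2: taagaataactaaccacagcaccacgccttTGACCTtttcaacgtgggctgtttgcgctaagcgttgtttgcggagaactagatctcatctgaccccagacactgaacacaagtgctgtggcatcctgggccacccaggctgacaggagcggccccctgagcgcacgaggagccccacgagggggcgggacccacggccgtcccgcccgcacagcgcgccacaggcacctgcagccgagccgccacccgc

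Searched on both strands, the Fabp1 window held 2 nuclear receptor half-sites, both read as TGACCT, at -67 to -62 and -9 to -4 from the start. It also held GTTAAT at -107 to -102 and TATAAA at -30 to -25. Cd36 held 1 half-site at -228 to -223 and Slc27a2 held 1 at -220 to -215. Among the 32851 RefSeq windows of this length, 14.02% held a half-site, 6.43% the hepatocyte nuclear factor 1 half-site and 12.4% the TATA box, and no 2 of these motifs overlapped in the Fabp1 window. The full repeat AGGTCANAGGTCA, present in 0.0335% of windows, and the forkhead core TGTTTAC, in 3.17%, were in none of the 11 windows of the 8 genes that the RefSeq table holds. Of those 11, 4 held a half-site, the fourth being that of Fabp7. Fabp4 and Fabp5 had no window, so the gene that carried both calls was not searched. Only exact letters were sought, so a repeat with a mismatch was not counted. In the Fabp1 window the half-site at -67 to -62 is followed, after 1 base, by TGGCCT, which is 1 letter from TGACCT. Matches of letters are a description of the windows, not of binding.

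Cd36, a membrane glycoprotein that takes up fatty acids and oxidised lipoproteins, read 4.26, 4.10, 4.34 and 4.57 in Zfp125 cells, against 5.33, 4.55, 4.91 and 4.89 in EV cells (transcript cluster 17445715). Of the Zfp125 arrays, 3 lay below all EV arrays, and replicate 4 of the Zfp125 cells lay just above replicate 2 of the EV cells. The change was -0.60 ± 0.17, or 65.8% of the EV level, and did not pass (limma adjusted p = 0.261). It passed under none of 19 other settings (adjusted p of 0.0813 to 0.486), with changes between -0.73 and -0.47.

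The 3 Slc27 genes, whose proteins draw in fatty acids by activating them, were not called in either direction. Slc27a4 read 6.06, 5.99, 6.02 and 6.07 in Zfp125 cells, against 5.85, 5.87, 5.89 and 5.96 in EV cells. The groups did not overlap, but the change was small, 0.15 ± 0.07 (limma adjusted p = 0.602), with a 95% interval of -0.02 to 0.31. Slc27a1, the form of muscle and fat, read 6.96, 7.09, 6.88 and 6.64 in Zfp125 cells, against 6.54, 6.72, 6.66 and 6.89 in EV cells. The groups overlapped, and the change of 0.19 ± 0.12 had an interval of -0.08 to 0.46 (limma adjusted p = 0.683).

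Slc27a2, the form of liver and kidney, was dim in these cells, with both of its clusters below the median cluster mean of 4.34. Its brighter cluster, transcript cluster 17391089, averaged 3.42 ± 0.16 in Zfp125 cells and 3.42 ± 0.16 in EV cells (SD, n = 4 each). Its other cluster, transcript cluster 17375701, averaged 2.87 ± 0.18 in Zfp125 cells and 3.06 ± 0.23 in EV cells. Their changes were 0.01 ± 0.11 and -0.19 ± 0.14, and these did not differ beyond the spread (exact permutation test, p = 0.457). By identifier the dimmer cluster sits among 10 genes on the plus strand of chromosome 2, the strand of Slc27a2, and the brighter one among 10 genes on the minus strand.

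Dbi, which binds acyl-CoA esters in most cell types, read 7.22, 7.20, 6.97 and 7.09 in Zfp125 cells, against 7.14, 7.11, 6.88 and 7.17 in EV cells. The groups overlapped, and the change was 0.05 ± 0.10 with a 95% interval of -0.18 to 0.27 (limma adjusted p = 0.937). Fabp2, Fabp4 and Fabp7 were dim, with means of 3.67, 2.75 and 3.45 in Zfp125 cells, against 3.68, 2.94 and 3.64 in EV cells. Their changes were -0.01 ± 0.09, -0.19 ± 0.16 and -0.19 ± 0.14 (limma adjusted p of 0.747 to 0.995). The 4 EV arrays of Fabp2 spanned only 3.67 to 3.69, inside the Zfp125 range of 3.54 to 3.81. In all, 9 of the 14 clusters had means over both groups above 4.34 and 5 did not. Among the 9, Fabp5 clusters 3 and 4 and Cd36 had means below 4.34 in Zfp125 cells. No filter on level was applied before the test.

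**Figure D2:**
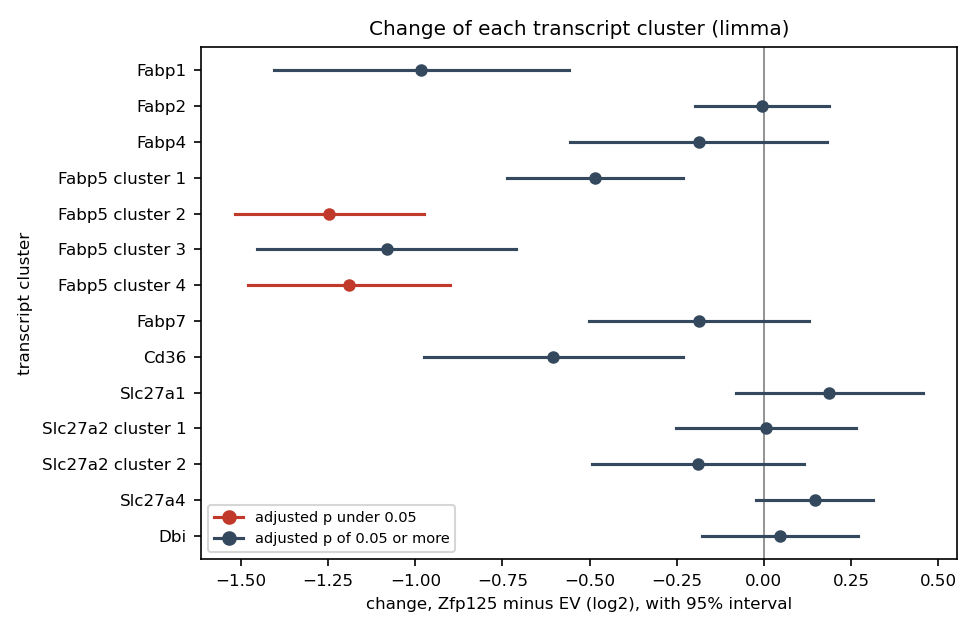
Change of each of the 14 transcript clusters (rows), Zfp125 minus EV on the log2 scale (x axis), with the 95% interval of limma's test; red marks an adjusted p under 0.05. Only Fabp5 clusters 2 and 4 are red, and the intervals of Fabp1, Cd36 and the other Fabp5 clusters also lie below 0.

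Of 8 hepatocyte markers 0 were called by limma and 4 had an unadjusted p under 0.05, beside 9.43% of all clusters. Their summed level, the log2 of the sum of unlogged values, was 13.70 to 13.78 in Zfp125 cells and 13.90 to 14.05 in EV cells. The sums did not overlap, but they rest mainly on Alb and Ttr. Ttr averaged 12.66 in Zfp125 cells and 12.58 in EV cells, and the next brightest marker, Apob, averaged 9.82 and 9.89. The lower sums in Zfp125 cells therefore mainly follow Alb. Alb had a change of -0.48 ± 0.08 (limma adjusted p = 0.0794), Hnf4a of -0.38 ± 0.08 (limma adjusted p = 0.14), Cps1 of -0.84 ± 0.22 (limma adjusted p = 0.247) and Ttr of 0.08 ± 0.10. With the brightest cluster of each of 22180 genes, where Fabp1 passed, Alb passed too (adjusted p = 0.0178). In bulk RNA from a cell line, a change in all of its cells and one in some of them cannot be told apart.

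The change of each cluster was also set against that of Alb on the same array. The change minus that of Alb was -0.50 for Fabp1, -0.77 for Fabp5 cluster 2 and -0.71 for Fabp5 cluster 4, each without overlap (exact permutation test, two-sided p = 0.0286). It was -0.60 for Fabp5 cluster 3 (exact p = 0.0571), -0.12 for Cd36 (exact p = 0.571) and -0.00305 for Fabp5 cluster 1 (exact p = 1). For Dbi, Slc27a1, Slc27a4, Fabp2 and the brighter Slc27a2 cluster it was 0.48 to 0.67, each at an exact p of 0.0286. Alb itself was lower without overlap, at 12.41 to 12.54 in Zfp125 cells and 12.88 to 13.05 in EV cells. A cluster with a change near 0 therefore separates once Alb is subtracted, and these positive differences are largely the change of Alb. With 14 clusters compared, the adjusted exact p of the 8 clusters at 0.0286 was 0.05, which is not under the threshold. An exact p of 0.0286 is the smallest that 4 against 4 arrays allow, so a cluster can pass adjustment only when most clusters reach it.

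Fabp4, Fabp5 and Cd36 are also genes of fat, macrophages and endothelium, so markers of other cell types were read as well. Of 5 adipocyte markers 0 were called, and their summed level was 6.49 to 6.66 in Zfp125 cells and 6.69 to 6.79 in EV cells. Of 7 macrophage markers 0 were called, with sums of 8.13 to 8.24 in Zfp125 cells and 8.33 to 8.42 in EV cells, in which the receptor Cd14 had the highest signal (change -0.31 ± 0.08, limma adjusted p = 0.221). The defining markers Adgre1 and Ptprc had changes of -0.00016 and -0.04 and averaged 3.08 and 3.05 in Zfp125 cells, against 3.09 and 3.09 in EV cells. The sums of 6 endothelial markers were 6.80 to 6.99 in Zfp125 cells and 6.96 to 7.003 in EV cells. Those of 6 stellate cell and fibroblast markers were 7.40 to 7.54 in Zfp125 cells and 7.44 to 7.52 in EV cells. Those of 4 biliary markers were 10.362 to 10.59 in Zfp125 cells and 10.20 to 10.356 in EV cells, higher in Zfp125 cells by a narrow margin without overlap. Sox9 had the highest signal among them (change 0.28 ± 0.09, limma adjusted p = 0.315). None of these markers was called by limma; at an unadjusted p under 0.05 there were 0 adipocyte, 1 macrophage, 0 endothelial, 1 stellate and 1 biliary marker, beside 9.43% of all clusters. The samples are named for the AML12 line only, so these sums describe its RNA and do not count cells of other types. The part of the lower adipocyte and macrophage sums, or of the higher biliary sums, in the values of Fabp5 and Cd36 was not tested.

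Of 77 measured genes in 7 lists around the same pathway, 1 rose and 0 fell, beside 0.148% of all clusters called. The lists hold each gene's brightest cluster. Where only the brightest cluster of each of 22180 genes was tested, the count was again 1, beside 1.08% of genes. The gene that rose was Foxa1, a liver forkhead factor, with a mean of 6.58 ± 0.19 in Zfp125 cells and 5.72 ± 0.15 in EV cells (SD, n = 4 each). Its change was 0.86 ± 0.12 (limma adjusted p = 0.0364), and the call held on leaving out 1 array in 1 of 8 cases. The other 13 of the 14 nuclear receptors and factors in that list were not called, and the list's median change was -0.17. Hnf4a, a hepatocyte nuclear receptor, passed under 2 of 19 other settings (adjusted p down to 0.0388). Ppara, the fatty acid receptor that drives Fabp1 in liver, had a change of -0.23 ± 0.14, Ppard of -0.19 ± 0.14 and Pparg of 0.17 ± 0.11.

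The other lists held 0 calls by limma, and their counts at an unadjusted p under 0.05 stand beside 9.43% of all clusters. That share covers unnamed and dim clusters too, here and for the markers above. The share among the brightest clusters of genes was not computed. Of 21 measured PPAR alpha targets 2 had an unadjusted p under 0.05, with a median change of 0.04. The values nearest the threshold were those of the oxidation enzymes Acaa2, -0.41 ± 0.11 (limma adjusted p = 0.229), and Ehhadh, -0.24 ± 0.10. Cpt1a, the entry step of mitochondrial oxidation, had a change of 0.20 ± 0.10 and the lipid droplet protein Plin2 of -0.16 ± 0.09. Of 9 other intracellular lipid-binding proteins 2 had an unadjusted p under 0.05, with a median of 0.02. Rbp2, a retinol carrier, averaged 7.81 ± 0.34 in Zfp125 cells and 7.20 ± 0.10 in EV cells in the brighter of its 2 clusters. That was a change of 0.61 ± 0.16 (limma adjusted p = 0.229). Fabp3, the heart form, averaged 8.16 ± 0.06 in Zfp125 cells and 7.92 ± 0.12 in EV cells, a change of 0.25 ± 0.09 (limma adjusted p = 0.405), and 0.00 ± 0.14 in its dimmer cluster.

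Of 8 other transport proteins and acyl-CoA synthetases 1 had an unadjusted p under 0.05, with a median of 0.02; Acsl4 had a change of -0.25 ± 0.08 and Acsl5 of -0.17 ± 0.10. Of 9 other acyl-CoA binding and lipid transfer proteins 2 had an unadjusted p under 0.05, with a median of 0.03, and Stard10, a phospholipid carrier, had a change of -0.33 ± 0.08 (limma adjusted p = 0.21). Acbd5, a peroxisomal acyl-CoA binding protein, had a change of -0.29 ± 0.12. Of 11 membrane partners of uptake 1 had an unadjusted p under 0.05, with a median of -0.07. Vldlr was at -0.21 ± 0.10 and Got2, in the brighter of its 2 clusters, at -0.20 ± 0.08. Of 6 lipases and their regulators 4 had an unadjusted p under 0.05, and the median of -0.25 was the lowest of the 7 lists. Lpl, lipoprotein lipase, had a change of -0.28 ± 0.09 in the brighter of its 2 clusters. Its maturation factor Lmf1 had a change of -0.24 ± 0.09.

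**Figure D3:**
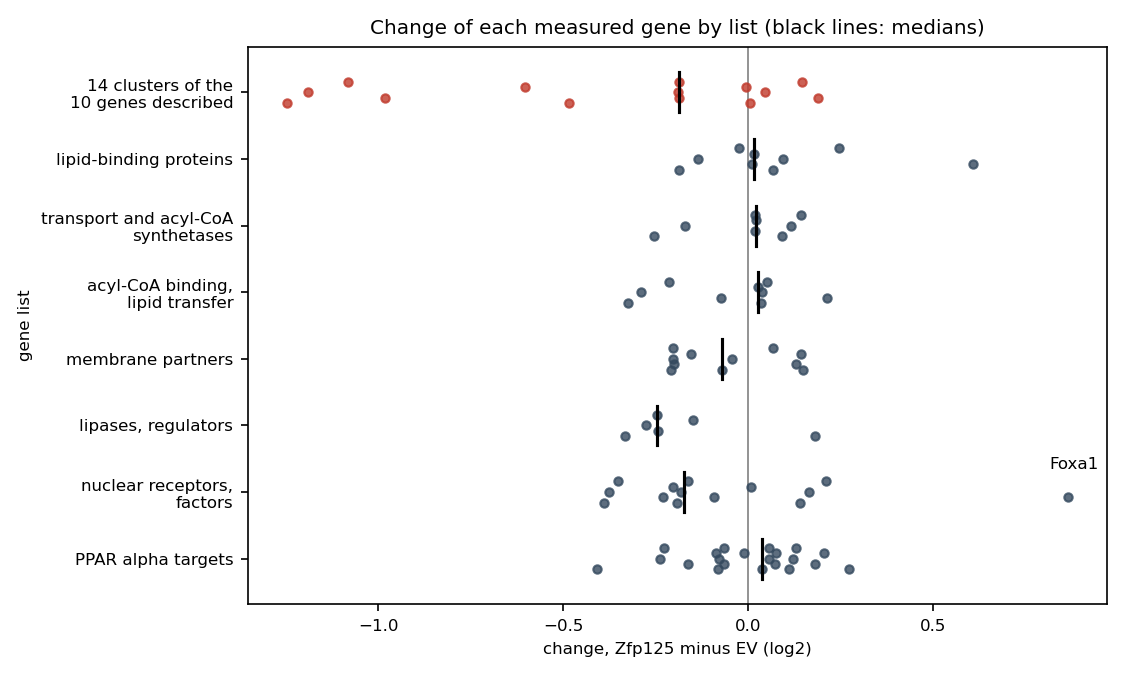
Change, Zfp125 minus EV on the log2 scale (x axis), of the 14 clusters described (top row, red) and of each measured gene of 7 pathway lists (lower rows, 1 point per gene at its brightest cluster); black lines are medians. Foxa1 at 0.86 is the only called gene of the lists, and no gene of the lists is below -0.41.

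The genes whose profiles over the 8 arrays lay nearest to Fabp1 were sought among 13826 singly named clusters above the median level, by the mean absolute difference after centring each gene on its own mean. They were 1810008I18Rik, Apoh, Dusp1 and Hsd17b13, at distances of 0.122 to 0.159 on the log2 scale. A small distance itself requires a change near that of the gene compared. Their changes were -1.05, -1.04, -1.03 and -0.89, beside -0.98 for Fabp1. Nearest to Cd36 were Bcl6, Cyb5b, Tspan8 and Insig1, at 0.109 to 0.124, with changes of -0.60 to -0.40. Nearest to Fabp5 cluster 1 were Atf5, Gne, Creg1 and Plg, at 0.0584 to 0.0747, with changes of -0.58 to -0.36.

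**Figure D4:**
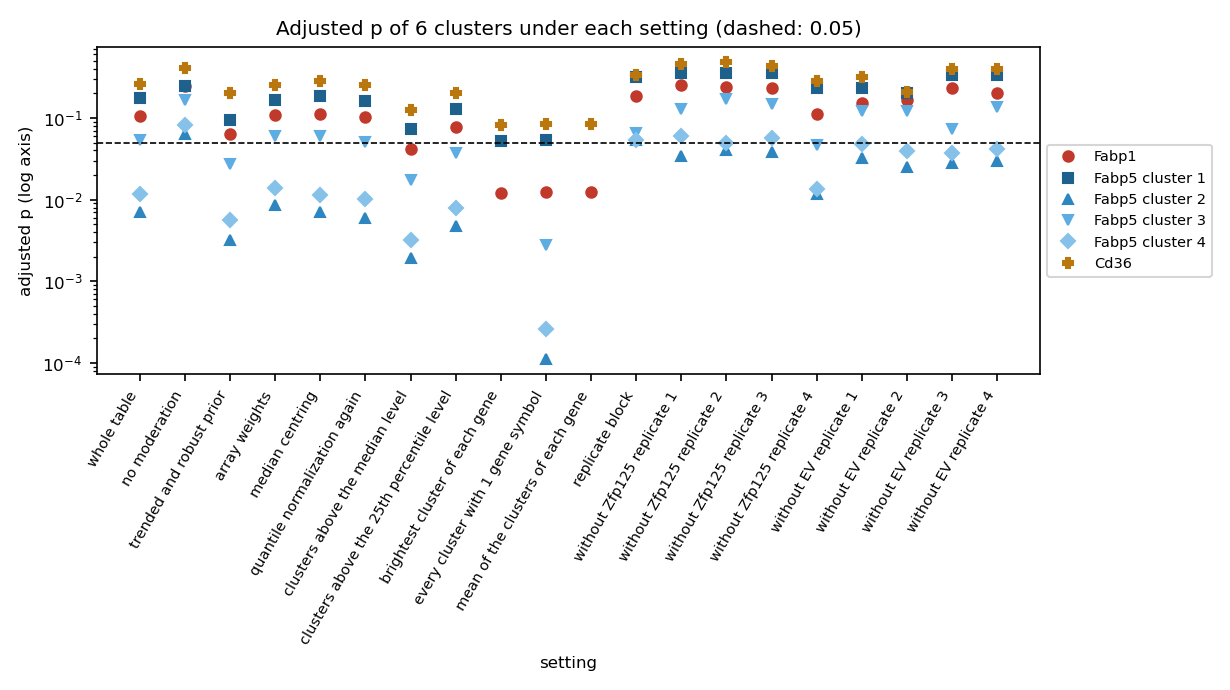
Adjusted p on a log axis (y axis) of Fabp1, the 4 Fabp5 clusters and Cd36 under the whole-table test and each other setting (x axis); the dashed line is 0.05 and a missing point means the cluster was not tested alone there. Fabp5 cluster 2 stays under the line except without moderation and with the replicate block, and Cd36 stays above it throughout, down to 0.0813.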

How the data were processed

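RNA of 4 Zfp125 and 4 EV samples of AML12 cells was measured on 1-colour arrays. The authors deposited log2 expression, with 41345 transcript clusters on each array; that the scale is log2 was read from the values. Their software was Affymetrix Expression Console with Transcriptome Analysis Console, per the submitters' processing notes (versions, background correction, normalization: not given in the sources used here). Depth is not defined for arrays, and their number limits the precision: the median SD over clusters was 0.154 in Zfp125 cells and 0.172 in EV cells.

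Clusters were named through the platform annotation (1 symbol for 23521, several for 1814, unnamed here for 16010), and symbols were updated through Entrez identifiers to GRCm38.p6, which matched 23328. Every cluster entered lmFit and eBayes of limma 3.58.1 in R 4.3.3, two-sided, with Benjamini-Hochberg adjustment over all 41345. Differences between clusters of a gene, and from Alb, were tested by exact permutation over 70 assignments. Genes of a list were represented by their brightest singly named cluster, and 9 of 86 listed genes are not analysed here. The members and lists were chosen with earlier results of these data known. Named are every cluster of the 10 genes, the called genes and the 2 smallest p of each list, marker genes, and the 4 nearest profiles of 3 clusters. Outside this rule, Pmp2, Fabp9, Fabp12, Ppara, Ppard, Pparg, Cpt1a and Plin2 were chosen after their values were seen.

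In simulated data with 200 of 41345 clusters changed in the Zfp125 against EV comparison, the test recovered 18% of clusters lowered by 0.5, 72% of those lowered by 1 and 98% of those lowered by 2, with 11 false calls among 143. Alternatives covered variance moderation, array weights, normalization, the clusters tested, a block for replicate number, and fits without each array. Figures were made in matplotlib 3.10.9.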

Additional observations from a re-analysis of the deposited data

How the results depend on the processing

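The number of called clusters among the 14 was 2. It was 0 without variance moderation. With the brightest cluster of each gene it was 1, where Fabp1 was called (adjusted p = 0.0119) and the only Fabp5 cluster tested, cluster 1, was not (adjusted p = 0.0522). It was 4 of the 9 tested among clusters above the median level of 4.34, where 1.12% of clusters were called. Fabp5 clusters 3 and 4 entered there only through their EV values. Their means were 4.11 and 4.05 in Zfp125 cells, against 5.20 and 5.24 in EV cells. Cd36, not called there, also entered only through EV, with means of 4.32 in Zfp125 cells and 4.92 in EV cells. With every cluster that carries 1 symbol, a setting chosen after seeing the data, it was 4, with 1.03% of clusters called. It was 1 to 3 on leaving out 1 array. With the replicate block it was 0, as were the counts for the 77 pathway genes and for all clusters. Samples with the same number did not deviate together (correlations of -0.04 to 0.03 in 4 pairs, with 1 of 4 Zfp125 samples closest to its own number), so the numbers do not show a pairing.

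The count of called pathway genes was 1, but 0 without moderation, 2 with a trended, robust prior, 2 among clusters above the median level, and 0 to 1 on leaving out 1 array. Over all clusters 61 were called (51 lower and 10 higher in Zfp125 cells), 4 without moderation, 196 with the trended, robust prior, 232 above the median level, 94 above the 25th percentile, 240 with the brightest cluster of each gene (141 lower and 99 higher), 243 with every singly named cluster, 227 with means of clusters, and 16 to 61 on leaving out 1 array, with the low end reached when Zfp125 replicate 1 was dropped. The median change over the table moved by under 0.1 in each setting.

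Changes near 0 changed sign in 9 cases: Fabp2 with array weights (0.000884) and in 2 of 8 omissions of an array (range -0.0521 to 0.0394), the brighter Slc27a2 cluster with median centring (-0.000468) and in 4 omissions (range -0.0649 to 0.0539), and Dbi in 1 omission (range -0.0190 to 0.0957). The causes were not tested. Fabp1, the 4 Fabp5 clusters and Cd36 kept their direction in every setting run. Of the settings other than leaving out an array, the call of Fabp5 cluster 3 was gained in 4 of 9. Of these, 1 was the median-level filter, which the cluster passes only through its EV values, and 1 was chosen after seeing the data. In the comparison with Alb and between clusters, 0 results passed after adjustment, also after quantile normalization again. Passing would need most comparisons to reach the smallest exact p of 0.0286, so these counts of 0 do not show equal changes.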
